A study of Mus musculus with 8 samples.

Results

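The NF-kappaB and IkappaB family comprises the transcription factors of the Rel family and the ankyrin-repeat proteins that hold or modify them. It was examined here through 10 of the 23361 genes with a value. They were taken by name, in a choice made with earlier results of these data known. The 5 Rel genes were Nfkb1, Nfkb2, Rel, Rela and Relb. The 5 genes on the IkappaB side were Nfkbia, Nfkbib, Nfkbie, Nfkbiz and Bcl3. All 10 had a mean of at least 1 FPKM (fragments mapped to a gene, scaled by its exon length and by the fragments mapped in the library) in both groups and all 10 entered the test. RNA sequencing compared iTreg (induced regulatory T cells, made from conventional CD4+ T cells in culture) that carried neuropilin-1 at the surface with those that did not, the question being how these 2 subsets differ. Each subset was represented by 4 libraries.

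Both groups were WT cells on the B6 background that shared a Foxp3-RFP reporter, from mice given in the methods as 7 to 8 weeks old. Naive CD4+ T cells had been stimulated with anti-CD3/CD28 microbeads in IL-2 and TGF-β (2 ng/ml). The labels give IL-2 at 50 U/ml, while the methods state its dose in ng/ml. Viable CD4+ Foxp3-RFP+ cells were then separated by surface Nrp-1. All cells had therefore received an antigen receptor and CD28 stimulus, itself an activator of NF-kappaB, and no unstimulated cells are among these 8 libraries. The labels give 3 days of culture in one field and Day 5 in another, and the methods give a sort on day 3. The labels call the 4 libraries of a group biological replicates without naming the animals or cultures, so the p-values measure the spread between these libraries.

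Rel proteins bind DNA as dimers and are kept in the cytoplasm by IkappaB proteins until the IkappaB kinases (IKK) mark the inhibitor for destruction. In the canonical route, downstream of the T cell receptor and CD28, this frees mainly p50-RelA and c-Rel dimers. In the noncanonical route NF-kappaB-inducing kinase (NIK) and IKKα process p100, the product of Nfkb2, to p52, which pairs with RelB. In regulatory T cells c-Rel is known for its part in switching on Foxp3, and the nuclear IkappaB proteins act on DNA-bound p50 or p52 rather than in the cytoplasm.

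Among the 10 genes, Nfkb2, Relb and Nfkb1 were higher in Nrp-1+ iTreg and Nfkbiz was lower. The difference was 31.4% of the Nrp-1- mean for Nfkb2, 13.5% for Relb and 5.62% for Nfkb1, and -12.9% for Nfkbiz. The other 6, Rel, Rela, Nfkbia, Nfkbib, Nfkbie and Bcl3, did not pass the test (limma on log2(FPKM + 1), adjusted p under 0.05 over all 10467 tested genes). Passing the test was common in this comparison. Of all tested genes 40.9% were called, 20.9% as higher and 20.0% as lower in Nrp-1+ iTreg, against 40.0% of the family. The median log2 fold change was -0.01 over the 10 genes and -0.02 over all tested genes. In 7 of the 10 genes the groups did not overlap, against 39.5% of all tested genes, and this difference in share was not tested.

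**Figure D1:**
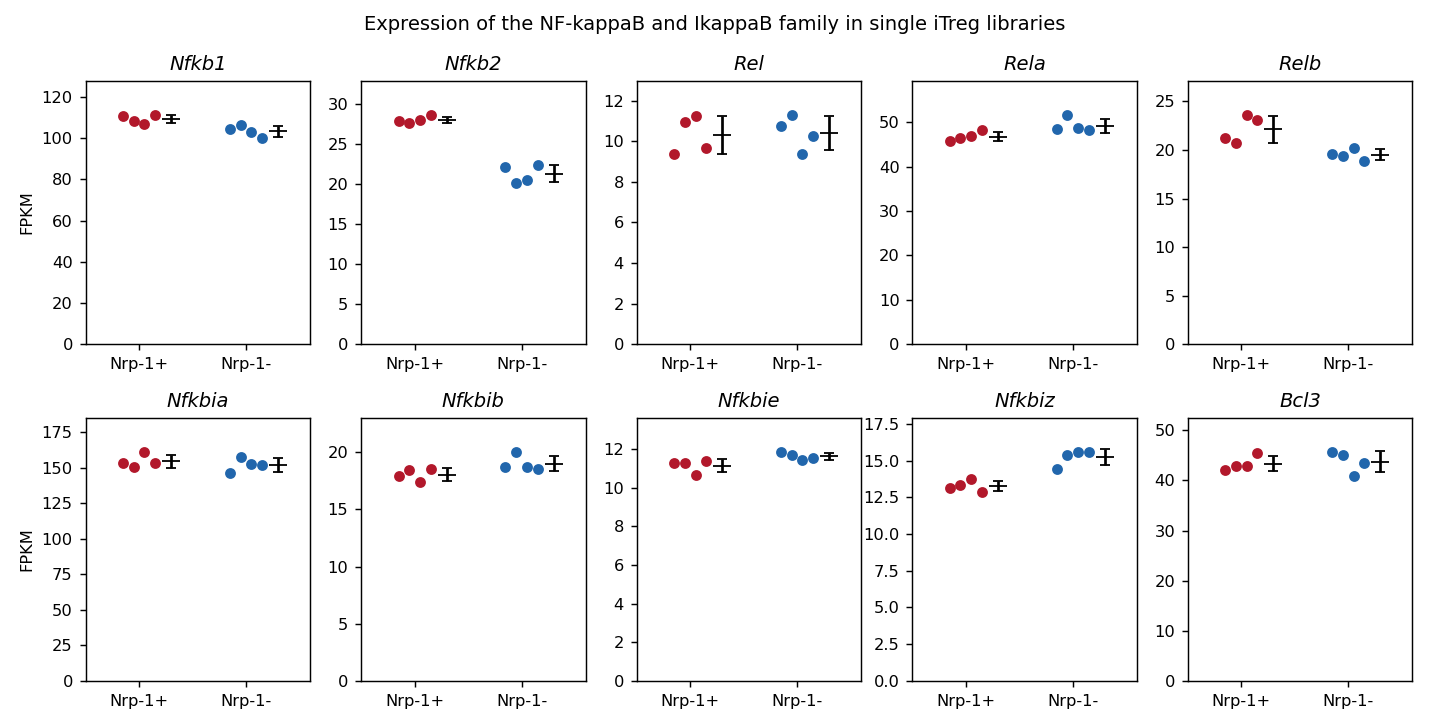
FPKM of each of the 10 genes in the 4 Nrp-1+ (red) and 4 Nrp-1- (blue) iTreg libraries, replicates 1 to 4 from left to right within a group, with the group mean ± SD in black; each vertical axis starts at 0 and has its own scale. Nfkb2 has the widest separation, 27.6 to 28.5 FPKM against 20.2 to 22.4 FPKM, while Rel, Nfkbia and Bcl3 overlap.

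Nfkb2 encodes p100, which serves both as precursor of p52 and as an inhibitor of RelB. It lies at chr19:46304320-46312385 on the plus strand (GRCm38). Its promoter stretches at 2 starts are printed because Nfkb2 showed the largest change of the family, and those of Nfkbia and Rel because these were the most and the least abundant members. They are RefSeq sequence (GRCm38.p6), read in the direction of the gene, and capitals mark letters that match the kappaB consensus, searched on both strands. The first Nfkb2 stretch is chr19:46304673-46304760 (plus strand) and the second chr19:46305680-46305724 (plus strand), upstream of and around different RefSeq starts. The Nfkbia stretch is chr12:55492642-55492701 (minus strand) and the Rel stretch chr11:23771026-23771086 (minus strand).
Nfkb2, start 1: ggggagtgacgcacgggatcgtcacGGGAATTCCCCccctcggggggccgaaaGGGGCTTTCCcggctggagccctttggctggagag
Nfkb2, start 2: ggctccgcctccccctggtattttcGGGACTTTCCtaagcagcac
Nfkbia: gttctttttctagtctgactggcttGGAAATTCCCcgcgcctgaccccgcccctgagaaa
Rel: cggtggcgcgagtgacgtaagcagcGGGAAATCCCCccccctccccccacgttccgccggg

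The Nfkb2 window at start 1 held matches at -39 to -30, at -38 to -29, which overlaps the first, and at -11 to -2, counted in bases from the start. Its window at start 2 held matches at 11 to 20 and at -236 to -227, and the former is the same stretch that the overlapping window at start 3 counts at -225 to -216. Nfkbia had a match at -29 to -20, Rel overlapping ones at -92 to -83 and -91 to -82, Nfkbie one at -106 to -97 and Bcl3 one at 3 to 12. No match lay in the windows of Rela and Nfkbib. RefSeq windows (300 bases, 250 before to 50 after a start) were found for 7 members, with Nfkb1, Relb and Nfkbiz not among them. Of the 9 member windows 7, from 5 genes, held a match, against 8.46% of the 32851 windows in the table. The member windows had a GC content of 56.3% to 75.0%, against a median of 52.7% over all windows, and the part of GC content in these counts was not tested. Of the 5 genes with a match only Nfkb2 passed the expression test, and Rel, Nfkbia, Nfkbie and Bcl3 did not. A match is a run of letters and not a measured binding site.

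**Figure D2:**
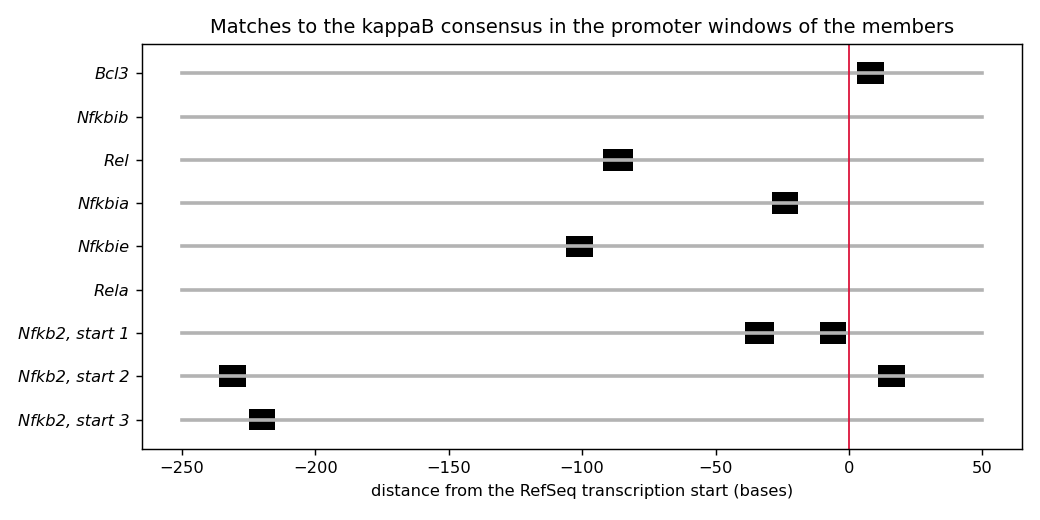
Position of matches to the kappaB consensus (black bars) in the 9 promoter windows of 7 members (grey lines, 250 bases before to 50 after each RefSeq start, red line), on the horizontal axis in bases from the start. Nfkb2 has matches in all 3 of its windows, and the windows of Nfkbib and Rela have none.

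Nfkb2 was at 27.9, 27.6, 27.9 and 28.5 FPKM in Nrp-1+ replicates 1 to 4 and at 22.1, 20.2, 20.5 and 22.4 FPKM in Nrp-1- replicates 1 to 4. Every Nrp-1+ library was above every Nrp-1- library, and the Nrp-1+ libraries lay closer together. Mean FPKM was 28.0 ± 0.411 (SD, n = 4) against 21.3 ± 1.11 (SD, n = 4). On the log2(FPKM + 1) scale the difference was 0.38 (SE 0.04), with a 95% confidence interval of 0.30 to 0.46 and an adjusted p of 9.12e-05. It passed the test under all 20 alternative settings, with a log2 difference of 0.36 to 0.40. In a transcriptome this widely shifted it was not among the largest changes, since 949 called genes had a larger absolute log2 difference. Nfkb2 shares exonic bases with Psd and AC114539.1 on the opposite strand, and whether the counting used strand is not given in the sources used here. Psd stood at 1.70 against 1.47 FPKM.

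Relb, whose product pairs with p52 and p100, lies at chr7:19606217-19629438 on the minus strand. It was at 21.2, 20.8, 23.6 and 23.1 FPKM in the Nrp-1+ libraries and at 19.6, 19.3, 20.2 and 18.9 FPKM in the Nrp-1- libraries. The groups did not overlap, with Nrp-1+ replicate 2 nearest to Nrp-1- replicate 3. The means were 22.1 ± 1.37 and 19.5 ± 0.559 FPKM (SD, n = 4 each), a log2 difference of 0.17 (SE 0.04; adjusted p = 0.0147). The call held under all 20 alternative settings, at adjusted p from 0.00578 to 0.0408.

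Nfkb1 encodes p105 and its product p50, the usual partner of RelA and c-Rel, and lies at chr3:135584655-135691547 on the minus strand. Its Nrp-1+ values were 110.5, 108.0, 106.8 and 111.0 FPKM and its Nrp-1- values 104.2, 106.3, 102.7 and 99.8 FPKM. The groups were separated by the small step between Nrp-1+ replicate 3 and Nrp-1- replicate 2. With means of 109.1 ± 2.01 and 103.3 ± 2.71 FPKM (SD, n = 4 each) the log2 difference was 0.08 (SE 0.02; adjusted p = 0.0350). This call was lost in 6 of the 8 fits with a library left out, while the log2 difference stayed at 0.06 to 0.09. The adjusted p rose to 0.0841, 0.0574 and 0.0768 without Nrp-1+ replicate 1, 2 or 4, and to 0.0520, 0.0772 and 0.0815 without Nrp-1- replicate 1, 3 or 4. After quantile normalization the call was also lost (0.267), as it was without an intensity trend (0.0548) and with a GC and length correction (0.0648). A block for the replicate number ended it as well (0.0929, and 0.145 with the GC and length correction added).

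Rela encodes p65, the main transactivating subunit of the canonical route (chr19:5637483-5648130, plus strand). Its values were 45.7, 46.4, 46.8 and 48.2 FPKM in the Nrp-1+ libraries and 48.4, 51.5, 48.6 and 48.2 FPKM in the Nrp-1- libraries. The groups met at 48.2 FPKM without crossing, Nrp-1+ replicate 4 lying just under Nrp-1- replicate 4. Means of 46.8 ± 1.06 and 49.2 ± 1.58 FPKM (SD, n = 4 each) gave a log2 difference of -0.07 (SE 0.03; adjusted p = 0.0772), which did not pass. With a GC and length correction it passed, at an adjusted p of 0.0160.

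Rel encodes c-Rel (chr11:23736847-23770970, minus strand) and was the least abundant member. It stood at 9.38, 10.9, 11.2 and 9.64 FPKM in Nrp-1+ and at 10.7, 11.3, 9.35 and 10.2 FPKM in Nrp-1- iTreg. High and low libraries occurred in both groups and the ranges coincided almost entirely. The means were 10.3 ± 0.923 and 10.4 ± 0.817 FPKM (SD, n = 4 each; log2 difference -0.01, SE 0.07, adjusted p = 0.888). The 95% interval of the difference, taken back from the log2(FPKM + 1) scale, ran from -11.6% to 10.8%, the widest of the 10 genes, and a difference as large as that of Nfkb2 lay outside it.

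**Figure D3:**
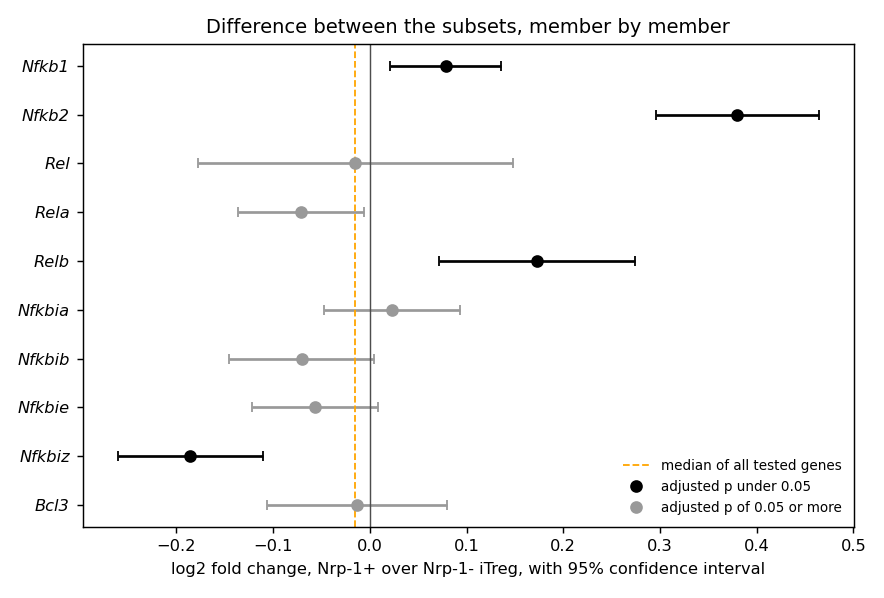
Log2 fold change of each member, Nrp-1+ over Nrp-1- iTreg, on the log2(FPKM + 1) scale with its 95% confidence interval; black points passed at an adjusted p under 0.05, grey points did not, and the dashed line is the median of all tested genes (-0.02). Nfkb2 (0.38), Relb (0.17) and Nfkb1 (0.08) lie above 0 and Nfkbiz (-0.19) below, each with an interval that leaves out 0, as does that of Rela (-0.14 to -0.01), which did not pass after adjustment.

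The balance among the Rel transcripts is given as a description, from sums of FPKM. The 5 Rel genes summed to 213.6 to 220.4 FPKM in the Nrp-1+ libraries and to 199.5 to 208.6 FPKM in the Nrp-1- libraries. Nfkb2 made up 12.9% to 13.0% of that sum in Nrp-1+ and 9.66% to 11.2% in Nrp-1- iTreg. Rela made up 21.3% to 21.9% and 23.6% to 24.7%. The shares of the other 3 overlapped between the groups, at 49.4% to 51.5% and 50.0% to 51.0% for Nfkb1, 9.72% to 10.9% and 9.28% to 10.0% for Relb, and 4.37% to 5.19% and 4.64% to 5.40% for Rel. Nfkb2 thus stood at 0.592 to 0.611 of the Rela level in Nrp-1+ and at 0.391 to 0.465 in Nrp-1- iTreg, and Relb at 0.448 to 0.503 and 0.375 to 0.416 of it. These shares and ratios restate the values above and are no separate evidence. A share also depends on the sum, which was higher in Nrp-1+ iTreg. All are of transcripts, and neither processing of p100 nor nuclear entry was measured.

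On the inhibitor side, none of the 3 classical IkappaB genes passed the limma test, and at an unadjusted limma p under 0.05 the number was also 0. Nfkbia encodes IkappaBα, the inhibitor that NF-kappaB itself induces as a rapid brake (chr12:55489410-55492647, minus strand), and was the most abundant member. Its FPKM values were 153.1, 150.5, 161.1 and 153.4 in Nrp-1+ and 146.1, 157.8, 152.8 and 151.8 in Nrp-1- iTreg. The ranges overlapped. Means of 154.5 ± 4.57 and 152.1 ± 4.79 FPKM (SD, n = 4 each) gave a log2 difference of 0.02 (SE 0.03, adjusted p = 0.583), with a 95% interval of -3.23% to 6.64%.

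Nfkbib, for IkappaBβ, the slowly turned-over inhibitor (chr7:28758251-28767512, minus strand), was at 17.9, 18.4, 17.4 and 18.5 FPKM in Nrp-1+ and 18.7, 20.0, 18.7 and 18.5 FPKM in Nrp-1- iTreg. Nfkbie, for IkappaBε (chr17:45555703-45563169, plus strand), was at 11.3, 11.3, 10.6 and 11.4 FPKM against 11.8, 11.7, 11.4 and 11.5 FPKM. In both genes the Nrp-1+ libraries lay below the Nrp-1- libraries without overlap and by a narrow margin. The log2 difference was -0.07 (SE 0.03, adjusted p = 0.121) for Nfkbib and -0.06 (SE 0.03, adjusted p = 0.147) for Nfkbie, and neither passed, though Nfkbie did after quantile normalization (0.0391). Exons of Nfkbib overlap Sirt2 and Ccer2 on the opposite strand, and Sirt2 was at 48.8 FPKM in Nrp-1+ and 57.5 FPKM in Nrp-1- iTreg. Its part in the Nfkbib values was not tested. The sum of Nfkbia, Nfkbib and Nfkbie stood at 0.832 to 0.874 of the Rel sum in Nrp-1+ and at 0.862 to 0.912 in Nrp-1- iTreg, ranges that overlap.

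Nfkbiz was the single member called lower in Nrp-1+ iTreg in the main fit, out of 6 with a lower mean there. It encodes IkappaBζ, a nuclear, inducible IkappaB protein that acts as a cofactor at NF-kappaB sites and is known in T cells for its part in Th17 differentiation (chr16:55811375-55838899, minus strand). It was at 13.2, 13.3, 13.7 and 12.9 FPKM in the Nrp-1+ libraries and at 14.4, 15.4, 15.6 and 15.6 FPKM in the Nrp-1- libraries. The groups did not overlap, and Nrp-1- replicate 1 lay apart from the other Nrp-1- libraries, towards the Nrp-1+ values. Means of 13.3 ± 0.346 and 15.2 ± 0.564 FPKM (SD, n = 4 each) gave a log2 difference of -0.19 (SE 0.03, 95% interval -0.26 to -0.11, adjusted p = 0.00260). It passed under all 20 alternative settings, at adjusted p from 0.00124 to 0.0140.

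Bcl3 encodes the other nuclear member, which binds p50 and p52 homodimers (chr7:19808462-19822770, minus strand; its exons overlap Gm16175 on the opposite strand). Its values were 42.0, 42.9, 42.9 and 45.5 FPKM in Nrp-1+ and 45.6, 45.1, 40.8 and 43.5 FPKM in Nrp-1- iTreg. The groups overlapped, the lowest and the highest values both being Nrp-1- libraries. At means of 43.3 ± 1.51 and 43.8 ± 2.19 FPKM (SD, n = 4 each) the log2 difference was -0.01 (SE 0.04, adjusted p = 0.817), with a 95% interval of -7.09% to 5.66%. Nfkbid, which encodes the nuclear protein IkappaBNS known to act with c-Rel at Foxp3, stood at 6.14 ± 0.691 against 6.35 ± 0.575 FPKM and did not pass (adjusted p = 0.692).

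For each member an exact two-sided permutation test of the FPKM means was also run, whose smallest possible p with 4 against 4 libraries is 0.0286. The 7 genes whose groups did not overlap were at that value, and Rel, Nfkbia and Bcl3 were at 0.857, 0.457 and 0.714.

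The order of levels was the same in both groups. From high to low it ran Nfkbia, Nfkb1, Rela, Bcl3, Nfkb2, Relb, Nfkbib, Nfkbiz, Nfkbie and Rel, on the FPKM scale, which divides by transcript length. In Nrp-1+ iTreg the only neighbours in this order with overlapping ranges were Nfkbie and Rel. In Nrp-1- iTreg the ranges of Relb overlapped those of both its neighbours, Nfkb2 and Nfkbib. Nfkbia was exceeded by 599 tested genes in mean FPKM and Nfkb1 by 885, against 6311 for Rel.

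The kinases that release or process the family, with their scaffold and adaptor proteins, formed a list of 10 genes, of which 1 rose, 4 fell and 5 did not pass (50.0% called, against 40.9% of all tested genes), with a median log2 difference of -0.07, against -0.02. Map3k14 encodes NIK, the kinase that starts p100 processing, and moved opposite to Nfkb2. It was at 10.1, 10.2, 9.41 and 9.83 FPKM in the Nrp-1+ libraries and at 13.2, 12.5, 13.0 and 12.5 FPKM in the Nrp-1- libraries. No library of one group reached the other, and the log2 difference was -0.34 (SE 0.03, adjusted p = 9.57e-05). The ratio of Nfkb2 to Map3k14 in FPKM, which restates the differences of both genes, was 2.70 to 2.97 in Nrp-1+ and 1.58 to 1.79 in Nrp-1- iTreg.

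Ikbke, for the IKK-related kinase IKKε, fell from 44.6 ± 0.602 to 37.5 ± 0.500 FPKM (log2 difference -0.24, adjusted p = 3.32e-05), in the direction from Nrp-1- to Nrp-1+ used throughout. Tab2, an adaptor of the TAK1 kinase, fell by 0.14 and Ikbkb, for IKKβ, by 0.09 on the log2 scale (adjusted p = 0.00533 and 0.0181). Map3k7, for TAK1 itself, rose by 0.16 (adjusted p = 0.00930). Chuk, for IKKα, and Ikbkg, for the scaffold NEMO, did not pass, at 17.0 against 17.9 and 10.1 against 10.3 FPKM, and Chuk passed with a GC and length correction (0.0360).

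Of 10 genes for the steps from the antigen receptor to IKK 1 rose and 1 fell (20.0% called, against 40.9% of all tested genes), with a median log2 difference of -0.02, as over all tested genes. The number that rose was 0 to 2 over the alternative settings. Prkcq, for the kinase PKCθ that acts downstream of the receptor, fell from 170.3 ± 1.76 to 151.0 ± 3.76 FPKM (log2 difference -0.17, adjusted p = 4.98e-04). Cd28, for the costimulatory receptor, rose by 0.09 on the log2 scale (adjusted p = 0.0433). That call was lost without any of the 3 Nrp-1+ replicates 1 to 3 or the 3 Nrp-1- replicates 2 to 4, at adjusted p from 0.0872 to 0.106. It was also lost with no filter on low values (0.0555), after quantile normalization (0.310) and without an intensity trend (0.0618). Bcl10 and Malt1, which act upstream of IKK, did not pass and were at 49.5 against 48.9 and 35.4 against 35.5 FPKM.

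Among 9 TRAF, cIAP and receptor-adaptor genes 1 rose and 3 fell (44.4% called, against 40.9% of all tested genes; median -0.07). Birc3, for cIAP2, fell from 31.9 ± 0.858 to 26.5 ± 0.984 FPKM (log2 difference -0.26, adjusted p = 4.00e-04), and Birc2, for cIAP1, fell by 0.13 (adjusted p = 0.00950). The cIAP proteins act with TRAF2 and TRAF3 to keep NIK low. Traf2 and Traf3 did not pass and were at 20.2 against 19.4 and 9.87 against 10.4 FPKM. Traf1, for an adaptor of TNF receptor family members, fell by 0.13 (adjusted p = 0.0339) and Tradd, an adaptor of TNF receptor 1, rose by 0.12 (0.0279). The Traf1 call was lost without Nrp-1+ replicate 1, 2 or 3 or Nrp-1- replicate 1 or 3 (0.0684 to 0.0801) and with no filter on low values (0.0505), and the Tradd call without Nrp-1+ replicate 2 or 3 or Nrp-1- replicate 1, 2 or 4 (0.0523 to 0.0704).

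In a list of 16 genes for enzymes and adaptors that attach, read or remove ubiquitin on the pathway, 5 fell, 0 rose and 11 did not pass in limma (31.2% called, against 40.9% of all tested genes), with a median of -0.07. At an unadjusted p under 0.05 the number higher was also 0. Tnfaip3, for A20, an inducible brake on IKK, fell from 38.0 ± 0.542 to 32.0 ± 0.409 FPKM (log2 difference -0.24, adjusted p = 3.89e-05). Itch, a ubiquitin ligase that works with A20, fell by 0.16 (adjusted p = 0.00973). Sharpin and Rnf31, for subunits of the linear ubiquitin ligase that supports IKK, fell by 0.16 and 0.15 (0.0112 and 0.0103). The deubiquitinase gene Cyld fell by 0.09 (0.0242), a call lost without Nrp-1+ replicate 3 or Nrp-1- replicate 1 or 3 (0.0517 to 0.0607).

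Of the 8 remaining IkappaB-related genes and nuclear modulators 1 rose, 1 fell and 6 did not pass (2 of 8 called, against 40.9% of all tested genes; median -0.03). Rnf25, for a RelA-binding ubiquitin ligase, fell from 15.4 ± 0.217 to 13.0 ± 0.698 FPKM (log2 difference -0.22, adjusted p = 0.00195). Commd1, which promotes the removal of RelA from DNA, rose by 0.18 (0.0316), a call lost without Nrp-1+ replicate 1 or 2 or Nrp-1- replicate 1, 2 or 3 (0.0551 to 0.0793), with no filter on low values (0.0512) and after quantile normalization (0.0706).

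Textbook NF-kappaB target genes went both ways. Their list, like the other pathway lists, was chosen with earlier results of these data known. Of the 32 on the list 28 were tested, and 11 rose, 5 fell and 12 did not pass (57.1% called, against 40.9% of all tested genes). After quantile normalization the number that rose was 7. The median log2 difference was 0.09, against -0.02 over all tested genes. Cd83, for a surface protein of activated lymphocytes and dendritic cells, was at 3.94, 3.70, 3.90 and 3.48 FPKM in Nrp-1+ and 1.97, 2.32, 2.42 and 1.51 FPKM in Nrp-1- iTreg, a log2 difference of 0.65 (SE 0.10, adjusted p = 0.00115) that understates so low a gene.

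Tnf, for the cytokine that itself activates the pathway, was at 12.2 ± 0.607 against 9.02 ± 0.620 FPKM (log2 difference 0.40, adjusted p = 5.00e-04), and Lta, for lymphotoxin α, at 40.5 ± 2.94 against 31.8 ± 0.186 FPKM (0.34, adjusted p = 8.44e-04). Irf1, for a transcription factor shared with interferon signalling, went down, from 111.8 ± 2.93 to 86.5 ± 1.49 FPKM (-0.37, adjusted p = 1.02e-05). Tnfaip3, Birc3 and Traf1 are on this list as well as on those above, and make up 3 of its 5 lower genes. Over all 78 tested pathway genes, each counted once, 15 rose and 16 fell (39.7% called, against 40.9% of all tested genes). Without Nrp-1+ replicate 2 the number that rose was 9.

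**Figure D4:**
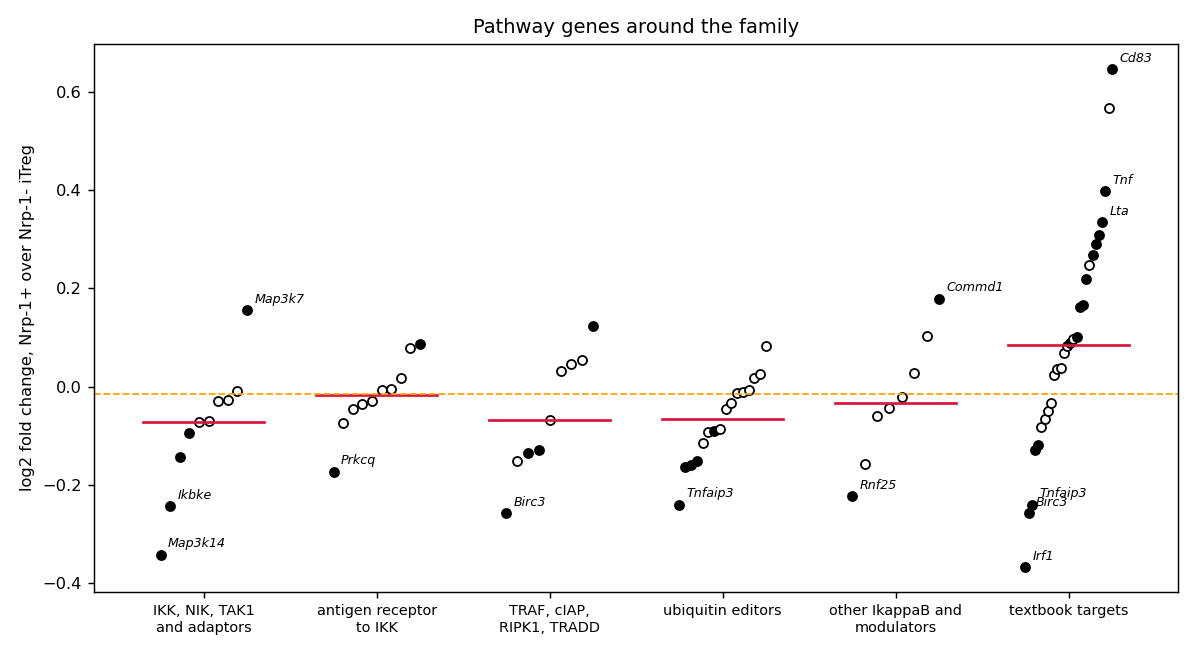
Log2 fold change, Nrp-1+ over Nrp-1- iTreg, of each tested gene in the 6 pathway lists, ordered by value within a list; filled points passed at an adjusted p under 0.05, red lines are list medians and the dashed line is the median of all tested genes. The 4 genes that fell in the list of kinases and their adaptors include Map3k14 (-0.34) and Ikbke (-0.24), and the targets run from Irf1 (-0.37) to Cd83 (0.65).

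The labels were checked against marker genes. Nrp1 stood at 21.5 ± 0.709 FPKM in Nrp-1+ and 4.95 ± 0.262 FPKM in Nrp-1- iTreg (log2 difference 1.92, adjusted p = 1.35e-07). All 8 CD4 T cell and Treg markers were present, summing to 1926 to 1970 FPKM in Nrp-1+ and 1964 to 2073 FPKM in Nrp-1- iTreg, and 6 of the 8 were called, 3 in each direction. Foxp3, at 115.8 ± 3.72 against 108.8 ± 1.20 FPKM (adjusted p = 0.0245), Il2ra and Ikzf2 were higher in Nrp-1+ iTreg. Ctla4, at 143.6 ± 2.85 against 160.0 ± 2.95 FPKM (adjusted p = 9.38e-04), Cd3d and Cd3g were lower. Levels are averages over a library, so fewer cells with a transcript and less of it per cell cannot be told apart.

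Markers of other cells were low. The 5 B cell markers summed to 5.21 to 5.91 FPKM in Nrp-1+ and 4.01 to 5.80 FPKM in Nrp-1- iTreg, nearly all of it Cd79b, and Ms4a1 and Pax5 were listed at 0 in every library. The 5 dendritic cell markers summed to 0.224 to 0.377 FPKM and 0.125 to 0.222 FPKM, most of it Zbtb46 and Xcr1. The 5 myeloid markers summed to 6.46 to 7.22 FPKM and 5.41 to 6.23 FPKM, nearly all of it Itgam, with the other 4 under 0.5 FPKM each. The 5 CD8 T and NK cell markers summed to 10.5 to 12.1 FPKM in Nrp-1+ and 13.2 to 16.1 FPKM in Nrp-1- iTreg, from Cd8b1 and Klrd1, while Cd8a, Ncr1 and Klrb1c were each under 0.5 FPKM. The dendritic, the myeloid and the CD8 and NK sums thus moved with the groups, and their part in the family's values was not tested.

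Over the 8 libraries, 7072 genes were at 0 throughout, and the 4282 called genes had a median absolute log2 difference of 0.22. Short RNA genes accounted for between 1.81% and 43.95% of a library's total FPKM, with high and low shares in both groups. The number of reads cannot be read from FPKM. Estimated from the steps between low values, depth relative to Nrp-1+ replicate 1 was 0.810 to 1.24, with group medians of 1.00 in both. The fit was partial, with 64.8% to 68.0% of the compared low values of the other libraries on a ratio of small whole numbers. No group was the deeper one by this estimate.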

How the data were processed

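RNA-seq of 4 Nrp-1+ and 4 Nrp-1- iTreg libraries was analysed, with groups and replicate numbers taken from the sample labels. The deposited table holds FPKM, which the authors obtained with Cufflinks after handling the reads on the CLC Genomics Workbench, as 1 value for each gene symbol in each library. The submitters' processing notes name GRCm38 and mm10, while aligner settings, annotation and use of strand are not given in the sources used here. The methods name a directional polyA+ kit and the labels a SMARTER kit. Positions are from GENCODE M21 (GRCm38).

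The values were used without further scaling. The 10467 of 23361 genes that averaged 1 FPKM or more were tested on log2(FPKM + 1), a pseudocount that shrinks the differences of low genes, with limma 3.58.1 in R 4.3.3 (lmFit, eBayes with an intensity trend), and p-values were adjusted by Benjamini-Hochberg over all tested genes. The fit was tested on simulated data. Exact permutation tests, sequence searches and plots ran in Python 3.11.15 (pandas 2.3.3, numpy 2.4.6, matplotlib 3.10.9, scipy 1.17.1). Named were all 10 members, Nrp1, up to 4 called genes per pathway list with the largest absolute log2 difference, 13 pathway genes whatever their value (1 of them is not reported here), and for the 3 members with the largest difference the 2 genes nearest in pattern. The members, lists and tests were chosen with earlier results of these data known.

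Other settings tried were a pseudocount of 0.1 or 0.5, dropping the filter or raising it to 5 FPKM, scaling by median-of-ratios size factors or by quantiles, a block for the replicate number, array weights, eBayes with no trend, the fit without 270 tested short RNA genes, a GC and length correction (alone and with the block) and each library left out in turn.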

Additional observations from a re-analysis of the deposited data

Results flagged for a closer look

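With the members, the named pathway genes and Nrp1, 82 groups of 4 libraries were examined for a single library apart from the other 3, measured by Dixon's ratio, which chance passes in about 1 in 20 groups, so 4.1 were to be expected and 5 were found. All 5 were Nrp-1- libraries. Rela was at 51.5 FPKM in Nrp-1- replicate 2, against 48.2 to 48.6 FPKM in the other 3. Nfkbib was at 20.0 FPKM in the same library, against 18.5 to 18.7 FPKM. Nfkbiz was at 14.4 FPKM in Nrp-1- replicate 1, against 15.4 to 15.6 FPKM. Cd28 was at 103.1 FPKM in that library, against 96.7 to 97.8 FPKM. Tnf was at 9.94 FPKM in Nrp-1- replicate 3, against 8.63 to 8.85 FPKM.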

How the results depend on the processing

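Nfkb2, Relb and Nfkbiz kept direction and call under all 20 alternatives, and no member that passed reversed. The number of members lower in Nrp-1+ iTreg was 2 instead of 1 after quantile normalization, with the correction for GC content and length, and with the replicate block plus that correction. The number of pathway genes that rose was 9 instead of 15 after quantile normalization and 9 to 14 with a library left out. Over all tested genes the number higher ran from 1742 to 2315 and the number lower from 1675 to 2306. Small differences that did not pass changed sign. Rel was at 0.0054 with array weights and at -0.0606 to 0.0247 with a library left out, and the corresponding ranges were -0.0459 to 0.0069 for Bcl3, -0.0712 to 0.0022 for Ikbkg and -0.0252 to 0.0126 for Malt1. Malt1 was also at 0.0018 with size factors and at 0.021 with the GC and length correction, with and without the block. The causes were not tested.

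The labels do not state whether libraries with the same number came from the same culture. Their deviations gave no sign of pairing, which does not show that the libraries were unpaired. Correlations between same-numbered libraries, as deviations from the group means without short RNA genes, were -0.108 to -0.0379, and 0 of the 8 libraries correlated best with its own number. With the replicate block 2 members rose instead of 3, the adjusted p of Nfkb1 being 0.0929, and the calls of Cd28 (0.0518), Commd1 (0.101) and Traf1 (0.0584) were also lost. FPKM keeps no read counts, so no counting interval could be given.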

Other observations

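For the 3 members with the largest differences the genes nearest in pattern were sought among 9879 tested genes, by the root mean square difference of log2(FPKM + 1), centred per gene, over the 8 libraries. For Nfkb2 these were Rad50, a DNA double-strand break repair gene (0.0288), and Pacsin2, a membrane-shaping gene (0.0331), against a median of 0.217 over the candidates. For Nfkbiz they were Paip2, a regulator of poly(A)-binding protein (0.0179), and the ribosomal protein gene Rpl22 (0.0195), against a median of 0.121. For Relb they were Milr1 (0.0191) and Fhl3 (0.0233), against a median of 0.143. None of these is a member of the family or of its pathway lists, and the measure does not separate likeness within the groups from the difference between them.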
